A study of Mus musculus with 8 samples.

Results

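Apob, Apoa1, Apoa2, Apoa4, Apom, Apoc2, Apoe and Mttp, 8 of the 18193 mouse genes named on the array, were taken as the genes of lipoprotein structure and assembly, by name. They were measured by 15 probe sets that named 1 of these genes and no other. Each gene was read by the probe set with its highest mean over all arrays. The others were kept as a check for the 5 genes that had more than 1. The samples were whole mouse embryo propers on a BALB/c background, and total RNA of each was hybridised to a 1-colour Affymetrix array of the whole mouse genome. The 4 groups, of 2 arrays each, were Runx1 knockout at E12 (embryonic day 12), wild type at E12, Runx1 knockout at E8.5 and wild type at E8.5. The study compared knockout with wild-type embryos at each stage to find genes that depend on Runx1, which encodes a DNA-binding factor without which definitive blood does not form. The knockout was carried by every cell of the embryo, and all tissues of an embryo were measured together, so fewer cells of a type and less RNA per cell cannot be told apart in any value below. The labels do not say if 1 or several embryos gave the RNA of an array, and the p-values measure only the spread between these samples, whose number limits the precision. All values are log2 of the array intensity and all differences are log2 differences unless a fold is named.

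Lipoproteins carry fat and cholesterol between tissues as particles with a lipid core and a protein coat. Apolipoprotein B is the scaffold of the very low density and low density particles, and the microsomal triglyceride transfer protein, encoded by Mttp, loads lipid onto it while it is made. Apolipoproteins A-I, A-II, A-IV and M belong to high density or intestinal particles, and apolipoproteins C-II and E move between particles and set their hydrolysis and uptake. In the adult these genes are read mainly in liver and intestine, and before the liver forms the visceral endoderm of the yolk sac makes and secretes many of the same proteins for the embryo.

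The genes lie on 6 chromosomes. On chromosome 9, Apoa1 and Apoa4 stand in 1 cluster with Apoc3 and Apoa5, on chromosome 7 Apoc2 and Apoe stand in another with Apoc4 and Apoc1, and Apob (chromosome 12), Apoa2 (chromosome 1), Apom (chromosome 17) and Mttp (chromosome 3) stand apart. RefSeq start sites (GRCm38.p6) were given for all 8 genes, with 11 windows of the 250 bases before a start. The windows are shown because most of these genes moved together between the stages and because the disrupted gene encodes a factor that binds DNA. They were searched on both strands for the RUNX core in its forms TGTGGT and TGCGGT, the nuclear receptor half-site AGGTCA, the HNF4 core CAAAGTCC, the HNF1 half-site GTTAAT, the GATA motif AGATAA and the TATA box TATAAA. The 4 windows below are those of the 2 genes with a RUNX form (Apoa2 and Mttp), of the scaffold gene Apob, and of Apoc2, which held a nuclear receptor half-site and an HNF1 half-site. Each is given 5′ to 3′ on the gene's strand, and capitals mark the motifs found.
Apoa2: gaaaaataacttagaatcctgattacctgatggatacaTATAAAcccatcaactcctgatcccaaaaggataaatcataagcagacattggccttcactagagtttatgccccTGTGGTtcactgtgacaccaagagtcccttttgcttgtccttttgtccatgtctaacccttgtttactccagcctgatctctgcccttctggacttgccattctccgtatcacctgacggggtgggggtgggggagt
Mttp: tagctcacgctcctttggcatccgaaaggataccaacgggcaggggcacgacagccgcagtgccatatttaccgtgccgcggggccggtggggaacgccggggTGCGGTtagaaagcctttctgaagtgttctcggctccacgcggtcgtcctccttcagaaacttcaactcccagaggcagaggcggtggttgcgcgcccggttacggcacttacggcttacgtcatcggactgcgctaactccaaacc
Apob: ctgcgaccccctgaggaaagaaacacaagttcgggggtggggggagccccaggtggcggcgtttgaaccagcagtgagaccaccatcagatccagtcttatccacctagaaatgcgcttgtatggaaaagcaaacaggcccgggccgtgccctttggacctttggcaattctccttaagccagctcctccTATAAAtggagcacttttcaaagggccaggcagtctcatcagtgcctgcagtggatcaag
Apoc2: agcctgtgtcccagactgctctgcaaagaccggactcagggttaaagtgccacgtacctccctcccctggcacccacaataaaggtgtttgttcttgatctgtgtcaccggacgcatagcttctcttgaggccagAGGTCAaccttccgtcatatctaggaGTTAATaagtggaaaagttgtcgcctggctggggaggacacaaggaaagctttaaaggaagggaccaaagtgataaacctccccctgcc
The Apoa2 window is chr1:171224804-171225053 on the plus strand, before the gene's second listed start, with TATAAA from -212 and TGTGGT from -137, counted in bases from that start. Mttp's lies at chr3:138143419-138143668 on the minus strand and holds TGCGGT from -147. The Apob window is chr12:7977427-7977676 on the plus strand, with TATAAA from -60. That of Apoc2 is chr7:19677942-19678191 on the minus strand, with AGGTCA from -115 and GTTAAT from -89. A RUNX form stood in a window of 2 of the 8 genes, against 18.5% of all 32536 windows of this length, and the HNF4 core in none of the 8 against 1.2%. The nuclear receptor half-site was found for 2 genes (Apoa2 and Apoc2; 14% of all windows), the HNF1 half-site for 2 (Apoc2 and Apoe; 6.47%), the TATA box for 3 (Apoa2, Apob and Apoe; 12.3%) and the GATA motif for none (9.97%). Genes with several starts had more windows in which to match. A match describes letters and not a bound site.

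The median over all probe sets was 5.16 to 5.20 on the E12 arrays and 4.96 to 5.01 on the E8.5 arrays, and the 99th percentile was 10.51 to 11.09 at E12 and 12.24 to 12.30 at E8.5. Whether the stages were normalised together is not given in the sources used here. Differences of the 8 genes between stages are therefore also given after quantile normalisation of all 8 arrays, and those of other genes are not. The targeted gene did not check the labels: the brightest Runx1 probe set read 7.10 and 6.86 in knockout and 7.06 and 6.39 in wild type at E12, and 6.41 and 6.86 in knockout and 6.16 and 5.95 in wild type at E8.5. Where its probes lie relative to the disruption is not given, so the groups rest on the labels alone. The samples are labelled embryo proper, which leaves out the yolk sac and placenta, but defining markers of visceral endoderm were bright at E8.5: Cubn, a subunit of its protein uptake receptor, read 3.87 to 4.26 at E12 and 12.99 to 13.35 at E8.5, and its partner Amn 3.80 to 4.13 at E12 and 10.67 to 11.03 at E8.5. Wild type replicate 1 at E8.5 also stood apart in 7 of 9 measured trophoblast markers, Ctsq and Psg21 being the others. The mean of all 9 was 5.21 and 4.59 on the E8.5 knockout arrays, 8.18 on that array and 4.61 on the other wild-type array. Plac1, made in trophoblast, read 9.45 and 8.59 in E8.5 knockout and 13.30 and 8.48 in E8.5 wild type. The comparisons of the 8 genes that rest on that array are therefore also given without it.

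All 8 genes were far lower at E12 than at E8.5, and on each of them all 4 E12 arrays lay below all 4 E8.5 arrays. The share of all probe sets separated in this way over all 4 and 4 arrays was not counted. Within a genotype, both E12 arrays lay below both E8.5 arrays on 8 of 8 genes in each genotype. This held for 36% of all probe sets in the knockout and 30.7% in wild type. By limma with Benjamini-Hochberg adjustment over 45037 probe sets, 8 of 8 fell in the knockout, where 14.1% of all probe sets were called lower, and 7 of 8 fell in wild type, where 15.7% were. The median difference between E12 and E8.5 was -5.63 over the genes and 0.029 over all probe sets in the knockout, and -5.02 over the genes and -0.0070 over all probe sets in wild type. A fall of 2 or more in each genotype was found for each of the 8 genes but Apoa2 (-1.98 in wild type), and for 2.47% of all probe sets. The test shows the change between the 2 sets of arrays, and detection calls were not used here, so whether an E12 value stood above background is not known.

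Apob, which encodes the scaffold of secreted particles, showed the largest difference of the 8. It read 5.40 and 5.94 in knockout and 5.65 and 5.31 in wild type at E12, against 12.06 and 12.81 in knockout and 11.37 and 13.13 in wild type at E8.5. The stages lay far apart on every array, while the genotypes overlapped at both stages. Its fall was 109-fold in each genotype (-6.77 in both, SE 0.57, adjusted p = 0.00137 in the knockout and 0.00143 in wild type). The second Apob probe set read 4.73 to 5.51 at E12 and 11.67 to 13.48 at E8.5.

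Mttp, whose product lipidates apolipoprotein B, fell less. Its values were 5.85 and 6.05 in knockout and 6.17 and 5.65 in wild type at E12, against 9.83 and 10.13 in knockout and 9.22 and 9.77 in wild type at E8.5. On the probe set used, replicates lay close together in all 4 groups. The difference was -4.03 in the knockout (SE 0.27, adjusted p = 0.000826) and -3.59 in wild type (SE 0.27, adjusted p = 0.00106), that is 16.3-fold lower in the knockout and 12.03-fold lower in wild type at E12. On the second Mttp probe set E8.5 replicates lay further apart, at 9.13 and 10.14 in knockout and 8.34 and 9.33 in wild type. There the difference was -5.135 in the knockout and -4.42 in wild type.

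Among the genes of high density lipoprotein, Apoa1 encodes the main structural protein. Apoa1 read 7.21 and 7.72 in knockout and 8.20 and 6.98 in wild type at E12, against 12.60 and 13.54 in knockout and 11.68 and 13.38 in wild type at E8.5. It fell 48.6-fold in the knockout (-5.60, SE 0.67, adjusted p = 0.00325) and 30.7-fold in wild type (-4.94, SE 0.67, adjusted p = 0.00424). Apom, which encodes the sphingosine 1-phosphate carrier of the same particles, read 6.78 and 7.27 in knockout and 7.17 and 6.88 in wild type at E12, against 11.83 and 13.07 in knockout and 11.28 and 12.95 in wild type at E8.5. For both genes the 2 genotypes overlapped at each stage and the second E8.5 array of each genotype was the higher. Apom fell 43.0-fold in the knockout (-5.42, SE 0.61, adjusted p = 0.00278) and 34.1-fold in wild type (-5.09, SE 0.61, adjusted p = 0.00318).

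Apoa2, which encodes the second protein of high density particles, changed least and was the gene not called in wild type. It read 7.09 and 7.30 in knockout and 7.37 and 7.05 in wild type at E12, against 9.30 and 11.03 in knockout and 8.14 and 10.26 in wild type at E8.5. The replicates at E8.5 lay 1.73 apart in the knockout and 2.12 apart in wild type, and wild type replicate 1 came nearest to the E12 arrays. The difference was -2.97 in the knockout (SE 0.78, adjusted p = 0.0346) and -1.98 in wild type (SE 0.78, adjusted p = 0.106). Without wild type replicate 1 at E8.5 the wild-type difference was -3.04 (adjusted p = 0.0117), and after quantile normalisation the knockout difference was -2.22 (adjusted p = 0.0798), so the calls of Apoa2 turned on single arrays and on the scaling.

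Apoa4, best known as an intestinal apolipoprotein, read 5.75 and 5.74 in knockout and 6.12 and 5.86 in wild type at E12, against 11.86 and 11.80 in knockout and 10.23 and 12.13 in wild type at E8.5. Both knockout pairs were nearly identical, and the spread of the gene came from the wild-type arrays. It fell 67.8-fold in the knockout (-6.08, SE 0.55, adjusted p = 0.00162) and 36.5-fold in wild type (-5.19, SE 0.55, adjusted p = 0.00235).

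The exchangeable apolipoproteins followed the same course. Apoc2, whose product activates lipoprotein lipase, read 6.12 and 6.34 in knockout and 6.88 and 5.36 in wild type at E12, against 11.30 and 12.48 in knockout and 11.19 and 12.16 in wild type at E8.5. It fell 50.7-fold in the knockout (-5.66, SE 0.62, adjusted p = 0.00254) and 46.9-fold in wild type (-5.55, SE 0.62, adjusted p = 0.00259). Apoe, whose product binds receptors of the low density lipoprotein receptor family and is made by macrophages and astrocytes as well as liver, read 6.38 and 7.01 in knockout and 7.75 and 7.83 in wild type at E12, against 12.47 and 12.40 in knockout and 11.83 and 12.44 in wild type at E8.5. At E12 both knockout arrays were well below both wild-type arrays, and at E8.5 the genotypes overlapped. Its fall was 53.4-fold in the knockout (-5.74, SE 0.28, adjusted p = 0.000297) and 20.3-fold in wild type (-4.34, SE 0.28, adjusted p = 0.000832).

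**Figure D1:**
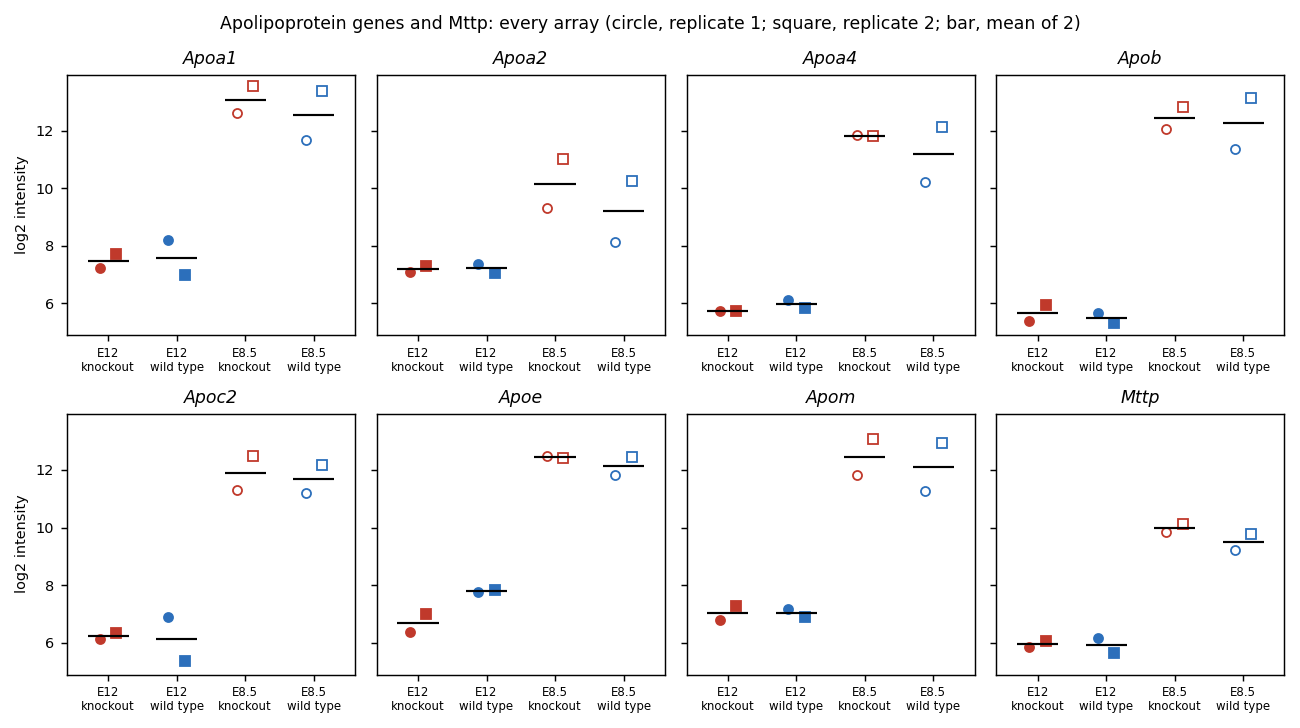
Log2 intensity (vertical axis) of each of the 8 genes on all 8 arrays, by group along the horizontal axis, with circles for replicate 1, squares for replicate 2 and a bar at the mean of the 2. On every gene the filled E12 symbols lie below the open E8.5 symbols, and the gap is smallest for Apoa2, at -2.97 in knockout and -1.98 in wild type.

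The other probe sets of these genes gave the same picture between the stages. Of the 15 probe sets, 15 were called lower at E12 in the knockout and 14 in wild type, the exception being that of Apoa2. After quantile normalisation of all arrays the differences were smaller, with a median of -4.72 in the knockout and -3.98 in wild type and a range of -6.10 to -1.27 in wild type, and all 8 stayed below 0. Leaving out each array in turn moved the median over the 8 genes between -6.05 and -5.10 in the knockout and between -5.86 (without E8.5 wild type replicate 1) and -4.16 (without E8.5 wild type replicate 2) in wild type, and changed no call but those of Apoa2.

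Genes that neighbour the 8 in their clusters did not all share the size of this fall. Between Apoa1 and Apoa4, Apoc3, which encodes an inhibitor of lipoprotein lipase, read 4.81 and 4.89 in knockout and 5.01 and 4.58 in wild type at E12, against 7.001 and 8.36 in knockout and 6.98 and 8.06 in wild type at E8.5, a difference of -2.83 in the knockout (adjusted p = 0.0109) and -2.73 in wild type (adjusted p = 0.0115). Apoa5, next to Apoa4, fell too, with a difference of -1.60 in the knockout (adjusted p = 0.0237) and -1.32 in wild type (adjusted p = 0.0404). In the other cluster, Apoc1 fell in the knockout (-0.99, adjusted p = 0.0351), with a difference of -0.58 in wild type (adjusted p = 0.145). Apoc4, which lies between Apoc2 and Apoc1, differed by -0.27 in the knockout (adjusted p = 0.427) and -0.046 in wild type (adjusted p = 0.904). Apoa5, Apoc1 and Apoc4 are named for their place in the clusters, after their values were seen. A low signal at both stages can also hide a difference on an array.

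Other genes of the pathway moved in both directions. Of 15 other genes listed for an apolipoprotein name or relation (among them Apobec1, whose enzyme edits the Apob transcript, and Apoo and Apool, whose products are mitochondrial), 3 fell and 6 rose in the knockout, and 2 fell and 6 rose in wild type, with a median difference of 0.25 in the knockout and 0.27 in wild type. For rises, 11.6% of all probe sets were called higher in the knockout and 12.1% in wild type. Apod, a lipocalin of many tissues, rose by 1.70 in the knockout (adjusted p = 0.00263) and 1.29 in wild type (adjusted p = 0.00522), and Apoh, a phospholipid-binding plasma protein, by 1.81 in the knockout (adjusted p = 0.00554) and 1.18 in wild type (adjusted p = 0.0185). Apof rose by 1.61 in the knockout and 1.47 in wild type. The serum amyloid genes Saa1 (1.04 in the knockout, 1.18 in wild type) and Saa4 (1.10 in the knockout, 1.34 in wild type) and Apobec1 (0.95 in the knockout, 1.22 in wild type) were called higher in both genotypes. These 6 genes had low signals. Their group means at E8.5 ran from 3.32 (Apof, knockout) to 4.71 (Saa1, knockout), below the array medians. At E12 they ran from 4.94 (Apof, knockout) to 6.37 (Apod, knockout). These rises are not given after quantile normalisation.

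Of 14 other genes of particle assembly and secretion, 6 fell and 0 rose in each genotype, with a median difference of -1.04 in the knockout and -0.85 in wild type. Pla2g12b, known in mouse liver for its part in secretion of very low density particles, read 5.86 and 6.25 in knockout and 6.76 and 5.57 in wild type at E12, against 9.71 and 10.56 in knockout and 9.71 and 9.95 in wild type at E8.5. Its difference was -4.08 in the knockout (adjusted p = 0.00256) and -3.67 in wild type (adjusted p = 0.00327), near that of Mttp. Dgat2, an enzyme of triglyceride synthesis, differed by -2.58 in the knockout and -2.33 in wild type, and Surf4, a cargo receptor for apolipoprotein B, by -1.06 in the knockout and -0.92 in wild type. Sec23a, of the coat that carries cargo out of the endoplasmic reticulum, differed by -1.27 in the knockout, and Mia3, which fits that coat to large cargo, by -2.02 in wild type. All of these passed the test.

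Of 13 receptors and uptake genes, 7 fell and 1 rose in the knockout and 6 fell and 1 rose in wild type, with a median difference of -1.42 in the knockout and -0.90 in wild type. Cubn, which binds apolipoprotein A-I and other ligands, showed a difference of -9.23 in the knockout (adjusted p = 4.2e-05) and -9.04 in wild type (adjusted p = 4.7e-05), and Amn, which brings Cubn to the membrane, of -7.08 in the knockout and -6.75 in wild type. The endocytic receptor Lrp2 differed by -4.95 in the knockout and -4.76 in wild type, and the adaptor Dab2 by -4.13 in the knockout and -3.39 in wild type, and all 4 genes were called in both genotypes. Cubn, Amn and Dab2 also belong to the visceral endoderm markers. Of 11 genes of lipid hydrolysis, transfer and efflux, none was called in the knockout and 1 fell in wild type (Lmf1, needed for active lipase, -0.85, adjusted p = 0.0462), and 1 passed an absolute t of 3, a threshold without adjustment, in each genotype. The brightest of that list, Lpl, which encodes the lipase that Apoc2 serves, differed by 0.56 in the knockout (adjusted p = 0.606) and -0.49 in wild type (adjusted p = 0.646). Its E8.5 values were 8.07 and 8.003 in knockout and 10.11 and 7.70 in wild type, so the sign of the wild-type difference rested on replicate 1, the array high in trophoblast markers.

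Of 18 transcription factors known to act on these genes or their tissues, 6 fell and 3 rose in the knockout and 5 fell and 4 rose in wild type. Foxa2, an endoderm factor, fell in both (-2.21 in the knockout, -2.23 in wild type), as did Srebf1, a factor of lipid synthesis (-1.16 in the knockout, -1.28 in wild type). Hnf4a, a nuclear receptor known to act on several apolipoprotein genes and named here after its values were seen, read 7.15 and 7.38 in knockout and 7.96 and 6.70 in wild type at E12, against 8.89 and 9.99 in knockout and 8.71 and 10.05 in wild type at E8.5. Its difference was -2.17 in the knockout (adjusted p = 0.0438) and -2.05 in wild type (adjusted p = 0.0489). Onecut1 rose by 1.07 in the knockout and 1.10 in wild type, Nr2f2 was called higher in the knockout (1.52, adjusted p = 0.00264) and not in wild type (0.31, adjusted p = 0.224), and Prox1 in wild type (1.53, adjusted p = 0.00628) and not in the knockout (0.61, adjusted p = 0.106). Their genotypes lay apart at E8.5, where Nr2f2 read 7.22 and 7.39 in knockout and 8.52 and 8.39 in wild type, and Prox1 4.98 and 4.87 in knockout and 4.25 and 3.61 in wild type, and overlapped at E12. The change of the knockout difference between the stages was not called for either (adjusted p = 1).

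Visceral endoderm markers moved with the 8 genes between the stages, and fetal liver markers moved in both directions. All 11 measured visceral endoderm markers were lower at E12, with 11 called in the knockout and 10 in wild type (Afp was the exception, -1.44, adjusted p = 0.0572), Spink1 among them (-6.47 in the knockout, -6.10 in wild type), and their median difference was -4.57 in the knockout and -4.44 in wild type. Their mean level was 6.41 and 6.54 in knockout and 6.77 and 6.39 in wild type at E12, against 11.23 and 11.60 in knockout and 10.98 and 11.45 in wild type at E8.5. Of 16 fetal liver markers, which share genes of plasma proteins with the yolk sac, 3 fell and 4 rose in the knockout and 1 fell and 5 rose in wild type. Alb, the main liver plasma protein gene, read 10.46 and 11.26 in knockout and 10.13 and 10.33 in wild type at E12, against 4.52 and 4.27 in knockout and 4.55 and 4.42 in wild type at E8.5, so it rose where the 8 genes fell (6.46 in the knockout, adjusted p = 0.000236, and 5.75 in wild type, adjusted p = 0.000391). Itih2 (3.01 in the knockout, 2.95 in wild type) and Vtn (1.86 in the knockout, 2.45 in wild type), which encode other plasma proteins, also rose. The fibrinogen genes went the way of the 8: Fga fell in both genotypes (-2.37 in the knockout, adjusted p = 0.00647, and -1.26 in wild type, adjusted p = 0.0434). Fgb (-2.06, adjusted p = 0.0162) and Fgg (-1.49, adjusted p = 0.0181) fell in the knockout, with differences in wild type of -1.30 for Fgb (adjusted p = 0.0640) and -0.57 for Fgg (adjusted p = 0.230). Fgb, and Fgg for this comparison, are named after their values were seen. The part of either tissue in the difference of the 8 genes was not tested.

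**Figure D2:**
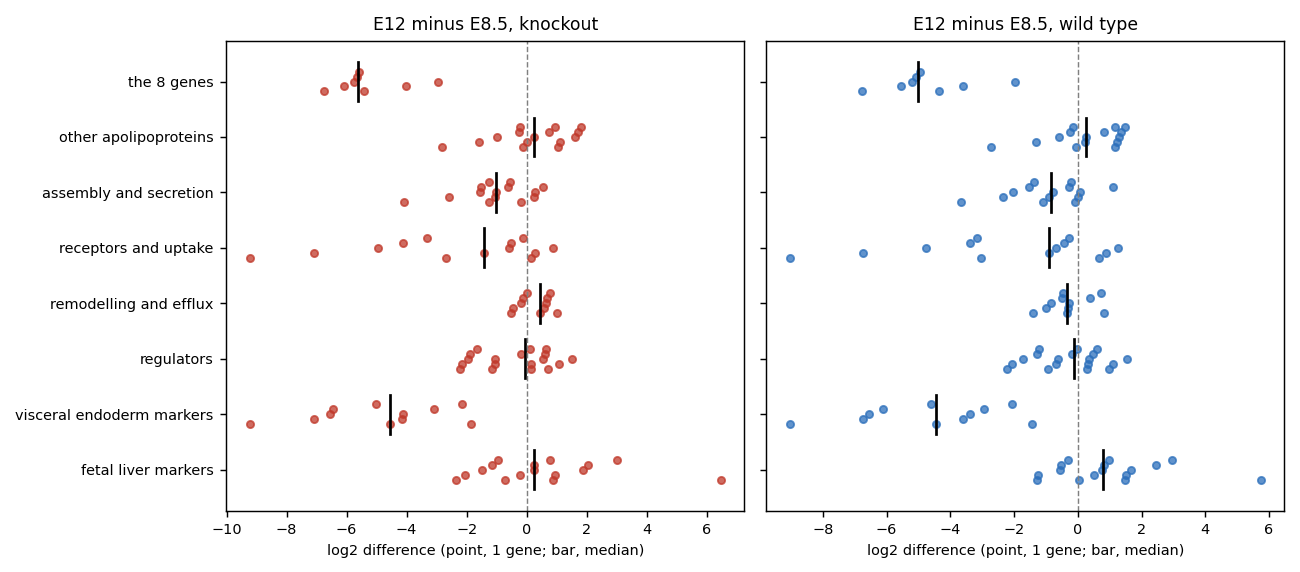
Difference in log2 intensity between E12 and E8.5 (horizontal axis; negative is lower at E12) for single genes, by list down the page, in knockout (left) and wild type (right), with a bar at each list's median. The medians of the 8 genes (-5.63 in knockout, -5.02 in wild type) and of the visceral endoderm markers (-4.57 in knockout, -4.44 in wild type) lie far left of 0, and that of the other apolipoproteins (0.25 in knockout, 0.27 in wild type) lies near it.

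The genes most like the 8 across the arrays were found by the root mean square distance, over 8 arrays, between a gene's deviations from its own mean and the mean deviation of the 8. They were Rbp4 (0.21), which encodes the plasma carrier of retinol, Lrp2 and B4galnt2 (0.31 each), Vil1 (0.32), which encodes villin of brush borders, and Rhpn2 (0.33). Rbp4 read 8.05 and 8.68 in knockout and 8.496 and 8.21 in wild type at E12, against 13.07 and 13.71 in knockout and 12.32 and 13.26 in wild type at E8.5. On the same measure the 8 genes themselves ran from 0.22 (Apom) to 1.30 (Apoa2), since Apoa2 moved less and Apob more than the rest. The arrays share their stage, so most of the likeness lies in the step between stages.

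Knockout and wild type differed little beside this step. At E12, 0 of the 8 genes were called by limma, where 0.0133% of all probe sets were called lower and 0% higher. The median difference was -0.0099 over the genes and 0.011 over all probe sets, and 5 genes were lower and 3 higher. The one exception in size was Apoe, which was lower on both knockout arrays (6.38 and 7.01) than on both wild-type arrays (7.75 and 7.83), a 2.14-fold difference (-1.10, SE 0.28, 95% interval -1.77 to -0.43, unadjusted p = 0.00652, adjusted p = 1). Apoe was measured by 1 probe set, so no other one checked this difference. It was the 1 gene of the 8 past an absolute t of 3, the threshold of the study's methods, which 0.473% of all probe sets passed downwards. It was also the 1 gene under an unadjusted p of 0.05, as 1.58% of all probe sets were. Its difference stayed between -1.41 and -0.78 without each array in turn, and it lost the t of 3 without knockout replicate 1 and without wild type replicate 2.

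The other 7 genes differed by between -0.24 (Apoa4, SE 0.55) and 0.19 (Apob, SE 0.57) at E12, each less than its SE in the fit of all groups. Apoa4 was the second gene whose groups did not overlap at E12, at 5.75 and 5.74 in knockout and 6.12 and 5.86 in wild type, and 15.8% of all probe sets were separated downwards in this way. With the E12 arrays fitted alone, which leaves out the wider spread at E8.5, the SE of its difference was 0.17 (adjusted p = 1). The second Apoa4 probe set did not repeat this separation: its groups overlapped at E12, with a difference of 0.0046 (SE 0.46) in the fit of all groups. In the fit of all groups the interval of the difference was -1.72 to 1.47 for Apoa1, -1.88 to 1.84 for Apoa2 and -1.18 to 1.56 for Apob. It was -1.37 to 1.59 for Apoc2 and -1.47 to 1.47 for Apom. Each of these took in a difference of 1 log2 unit either way. For Mttp the interval was narrower, at -0.61 to 0.69 (-0.96 to 1.13 on its second probe set). These widths carry the spread at E8.5. With the E12 arrays fitted alone the SE was smaller for Apoa1 (0.43 against 0.67), Apoa2 (0.19 against 0.78) and Apob (0.25 against 0.57).

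Macrophage markers moved with Apoe at E12. All 12 were lower in the knockout, against 47.5% of all probe sets, 6 passed an absolute t of 3, 1 was called, and the median difference was -1.05. The mean of the list was 5.004 and 4.93 in knockout and 6.19 and 5.95 in wild type at E12, against 4.74 and 4.77 in knockout and 4.89 and 4.88 in wild type at E8.5. Ctss, which encodes the protease cathepsin S, read 4.50 and 4.59 in knockout and 7.86 and 7.80 in wild type at E12 (-3.29, adjusted p = 0.00537), and C1qc, a complement gene of macrophages, read 4.11 and 3.81 in knockout and 5.58 and 5.33 in wild type. Cx3cr1 (-0.98, adjusted p = 0.809) and Lyz2 (-1.23, adjusted p = 0.849) passed the t of 3 without being called. The part of macrophages in the Apoe difference was not tested. The visceral endoderm list differed by a median of -0.16 at E12 and the fetal liver list by -0.16, with none of 11 and none of 16 called. Of 9 red cell markers at E12, 6 were lower and 3 higher in the knockout, with a median of -0.12 and none called. Among them Klf1 (-1.39, SE 0.57), Ermap (-1.25, SE 0.69) and Rhag (-0.82, SE 0.28) were lower, so a lower value was not limited to macrophage markers. These 3 are named after their values were seen.

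At E8.5 all 8 genes were higher in the knockout, where 53.1% of all probe sets were lower, but the direction turned on single arrays. By limma 0 of the 8 were called, as for 0% of all probe sets in either direction, and none passed an absolute t of 3 (0.881% of all probe sets upwards) or an unadjusted p of 0.05 (4.73% of all probe sets). The differences ran from 0.19 (Apob, SE 0.57) to 0.97 (Apoa2, SE 0.78) with a median of 0.41, against -0.018 over all probe sets. Wild type replicate 1 was the lowest of the 4 arrays on 8 of 8 genes, as on 28.5% of all probe sets. Without it the median was -0.28 with 7 of 8 genes lower in the knockout, and without knockout replicate 2 it was 0.086 with 3 of 8 lower. Without wild type replicate 2 it was 1.11 with all 8 higher. In that last fit, which takes the lone array to vary like the other groups, Apoa4 was called (1.60, adjusted p = 0.00876), as were 1942 of all 45037 probe sets, against 0 with all arrays kept.

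Mttp alone kept its sign under every array left out at E8.5. It read 9.83 and 10.13 in knockout and 9.22 and 9.77 in wild type, and so did not overlap between the groups, as was true upwards of 13.2% of all probe sets. The difference was 0.48 (SE 0.27, 95% interval -0.16 to 1.13) and lay between 0.21 and 0.76 without each array in turn. On the second Mttp probe set the groups overlapped, at 9.13 and 10.14 in knockout and 8.34 and 9.33 in wild type (0.80, SE 0.44). Apoe, at 12.47 and 12.40 in knockout and 11.83 and 12.44 in wild type, differed by 0.30 (SE 0.28, interval -0.37 to 0.97). Outside the 8 genes, listed genes past an absolute t of 3 at E8.5 were Mylip (0.91), Nr2f2 (-1.16), Prox1 (0.999), Fgg (1.16), the red cell gene Ermap (-2.52) and the neural gene Fabp7 (3.57), and none was called (adjusted p = 0.843 to 1). Among the 8, the intervals of the other 6 spanned at least -0.67 to 1.56.

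**Figure D3:**
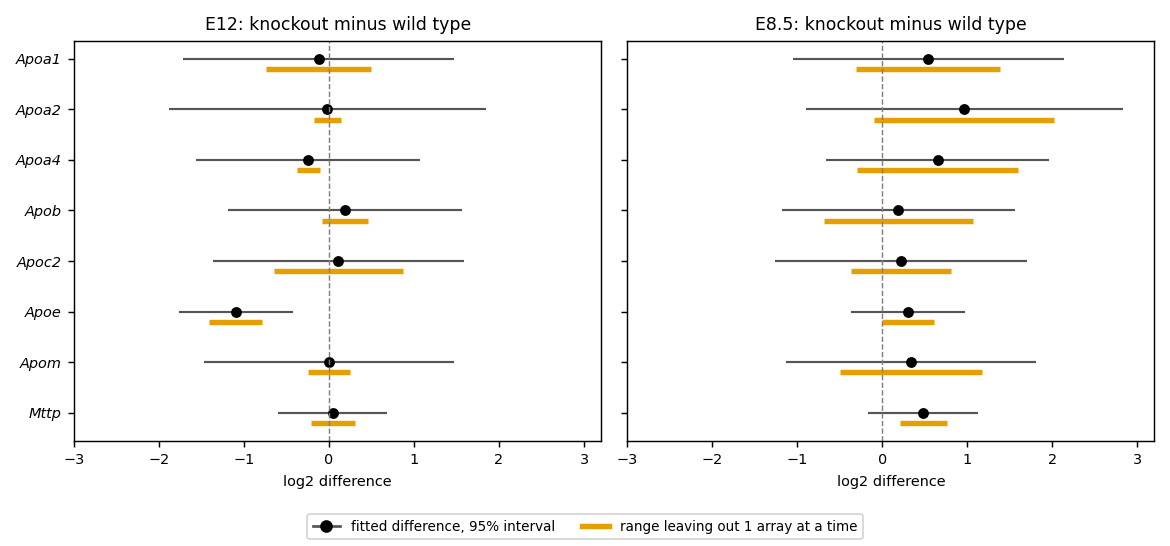
Knockout minus wild type (log2, horizontal axis) for each of the 8 genes at E12 (left) and E8.5 (right), with points and thin lines for the fitted difference and its 95% interval and thick bars for the range when 1 array at a time is left out. Apoe at E12 (-1.10) is the single point whose interval leaves out 0, and at E8.5 most thick bars cross 0.

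Arrays within a group differed more on these genes than over all probe sets, which were not matched to them for level. From replicate 1 to replicate 2 the median absolute difference over the 8 genes was 0.36 in E12 knockout (0.14 over all probe sets), 0.33 in E12 wild type (0.27), 0.84 in E8.5 knockout (0.20) and 1.68 in E8.5 wild type (0.31). At E8.5, 6 of 8 genes were higher in replicate 2 than in replicate 1 in both genotypes, as were 31.3% of all probe sets. Apoa4 and Apoe were the exceptions, with the slightly lower value in knockout replicate 2. The second Apoa4 probe set showed a larger gap, at 10.84 in knockout replicate 1 and 10.24 in knockout replicate 2.

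Measures of other tissues and of RNA quality also differed between the E8.5 arrays, not all in the order of the 8 genes. Relative to the mean of the 4 E8.5 arrays, the 8 genes averaged -0.15 and 0.60 in knockout and -0.93 and 0.48 in wild type. The visceral endoderm list averaged -0.087 and 0.28 in knockout and -0.34 and 0.14 in wild type, with the same order of arrays at a smaller size. The trophoblast list averaged -0.43 and -1.06 in knockout and 2.53 and -1.04 in wild type, so the array with the lowest lipoprotein genes had the highest trophoblast signal. The neural progenitor list averaged 0.32 and 0.24 in knockout and -0.60 and 0.049 in wild type, and the red cell list -0.42 and -0.67 in knockout and -0.49 and 1.57 in wild type. The 3′ probe set of beta-actin exceeded the 5′ one by 1.56 and 2.50 in knockout and 1.48 and 2.61 in wild type at E8.5, higher in replicate 2 of each genotype as most of the lipoprotein genes were. At E12 the beta-actin excess was 1.69 and 1.45 in knockout and 1.84 and 1.43 in wild type, lower in replicate 2 of each genotype. For Gapdh the excess was 2.16 and 2.65 in knockout and 2.25 and 2.56 in wild type at E8.5. It was 2.38 and 2.65 in knockout and 2.20 and 2.57 in wild type at E12. The Gapdh excess was thus higher in replicate 2 of each genotype at both stages, so the 2 controls differed in order at E12. The part of none of these in the spread was tested.

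At E12 the deviations were smaller, at -0.25 and 0.10 in knockout and 0.35 and -0.20 in wild type for the 8 genes and -0.33 and 0.22 in knockout and 0.31 and -0.20 in wild type for the fetal liver list. The highest E12 array on the 8 genes was thus wild type replicate 1, which led on 5 of 8 genes. The visceral endoderm list averaged -0.12 and 0.007 in knockout and 0.25 and -0.13 in wild type at E12, also highest on that array.

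**Figure D4:**
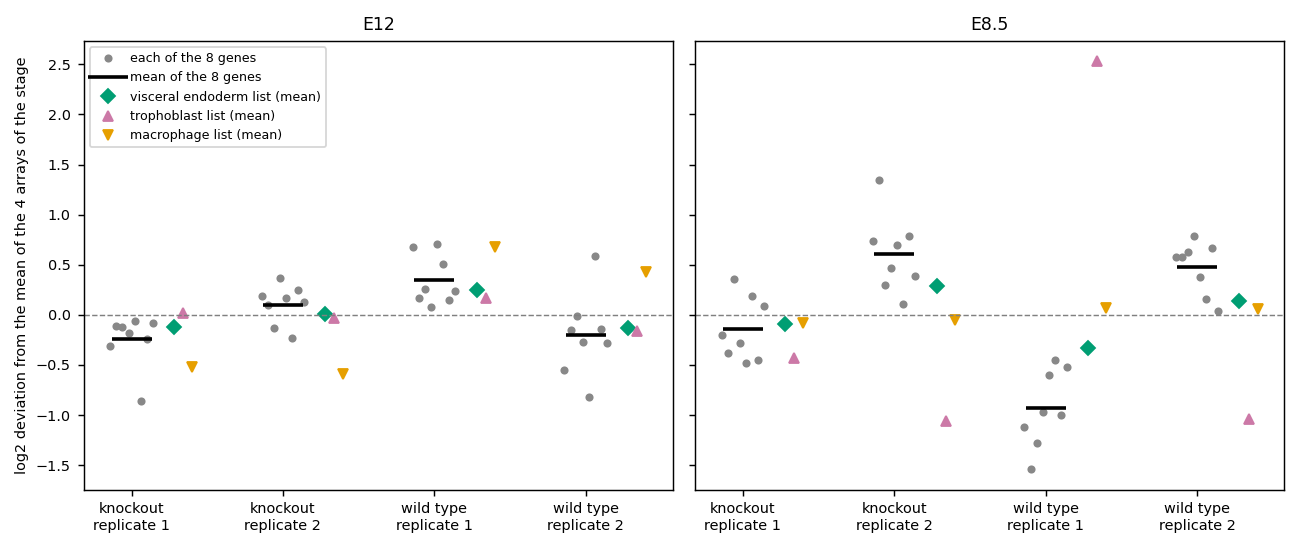
Deviation of each of the 8 genes (grey points), of their mean (bar) and of 3 marker lists from the stage's mean over 4 arrays (log2, vertical axis), for each array at E12 (left) and E8.5 (right). On E8.5 wild type replicate 1 all 8 points lie below 0, with a mean of -0.93, and the trophoblast mean lies at 2.53.

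Whether the knockout difference changed between the stages was tested in the same fit. Over the 8 genes 0 were called, where 0.00444% of all probe sets were called lower and 0% higher, and 7 of 8 differences lay below 0 with a median of -0.55, where 45.4% of all probe sets lay below 0. Apoe had the largest, at -1.40 (SE 0.40, 95% interval -2.34 to -0.45, adjusted p = 1), and was the 1 gene past an absolute t of 3, as 0.426% of all probe sets were downwards. Apob had the smallest, at 0.0023 (SE 0.81). Without E8.5 wild type replicate 1 the median was 0.13 with 2 of 8 below 0, and without E8.5 wild type replicate 2 it was -1.34 with 8 of 8 below 0 and Apoa4 called (-1.84, adjusted p = 0.0271), in a fit that called 718 of all 45037 probe sets against 2 with all arrays kept. Leaving out each array in turn kept the sign of Apoe (-1.71 to -1.08) and Mttp (-0.72 to -0.16), and 6 genes changed sign.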

How the data were processed

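RNA of 8 embryo samples was amplified and hybridised to 1-colour arrays. The authors used Robust Multi-array Analysis to normalise and summarise the probes, and deposited linear intensities. Detection calls were not used here, and the software version is not stated. The log2 of the deposited intensities was taken with a pseudocount of 0. Of 45101 probe sets, 64 controls were left out and 45037 tested, with no filter on dim ones. Symbols came from the platform annotation and a RefSeq table (GRCm38.p6), by which 34945 probe sets had 1 symbol, 932 several and 9160 none here. Only those with 1 symbol were named, and list genes without such a probe set were not analysed here. Promoter windows are RefSeq's.

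All groups were fitted together with limma 3.58.1 in R 4.3.3 (lmFit, eBayes), with 1 mean per group. Calls were made at an adjusted p below 0.05 (Benjamini-Hochberg, all 45037 probe sets). The absolute t above 3 of the study's methods carries no adjustment. The fit was tested on simulated data. The 8 genes and all lists were chosen with earlier results of these data known. Besides the 8 genes, up to 4 genes per list and contrast past a threshold could be named by absolute t, or else the 2 brightest, plus the 5 most like the 8. Which of these list genes are printed was decided after their values were seen. Alternatives were a replicate block, quantile normalisation, median centring, a filter on dim probe sets, stages fitted alone, an intensity trend, array weights, gene means and leaving out each array.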

Additional observations from a re-analysis of the deposited data

How the results depend on the processing

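Every stage difference of the 8 genes kept its sign under all alternatives run. Apoa2 in the knockout lost its call under quantile normalisation (-2.22) and in 5 of 8 fits that left out 1 array, and gained it in wild type in 1. With all arrays kept, 2 differences changed sign: that of Apob between the knockout differences of the stages under median centring (-0.0147), and that of Apom at E12 when a gene's probe sets were averaged (0.0532). Median centring moved the median of all probe sets between stages to -0.18 in the knockout and -0.20 in wild type, and that of the 8 genes to -5.84 in the knockout and -5.21 in wild type.

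Leaving out 1 array at a time moved the knockout differences across 0 for most genes. At E12 they ran from -0.74 to 0.49 for Apoa1, -0.18 to 0.14 for Apoa2, -0.083 to 0.46 for Apob, -0.65 to 0.87 for Apoc2, -0.24 to 0.24 for Apom and -0.22 to 0.30 for Mttp. At E8.5 they ran from -0.31 to 1.39 for Apoa1, -0.093 to 2.02 for Apoa2, -0.30 to 1.60 for Apoa4, -0.69 to 1.06 for Apob, -0.37 to 0.81 for Apoc2, -0.0077 to 0.60 for Apoe and -0.50 to 1.17 for Apom. The change of the knockout difference between stages ran from -1.51 to 0.19 for Apoa1, -2.04 to 0.074 for Apoa2, -1.84 to 0.057 for Apoa4, -0.87 to 0.88 for Apob, -0.87 to 0.65 for Apoc2 and -1.17 to 0.50 for Apom. The count of the 8 genes called then ran from 0 to 1 at E8.5 and for the change between stages and stayed at 0 at E12, and the count past an absolute t of 3 ran from 0 to 1 at E12 and 0 to 2 at E8.5.

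A replicate block on the labels' replicate number left the 8 genes' calls at 8 between stages in the knockout, 7 between stages in wild type, 0 at E12, 0 at E8.5 and 0 for the change, while the calls over all probe sets at E12 were 2 with the block and 6 without it. Deviations of same-numbered arrays correlated at 0.173 at E12 and 0.372 at E8.5 over probe sets. With 2 arrays per group the deviations mirror each other, so both pairs of a stage give the same value. With array weights, 19889 probe sets were called between stages in the knockout and 7971 in wild type, against 11539 in the knockout and 12525 in wild type without them. The cause of these changes was not tested. The number of arrays limits the precision of every knockout difference.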
